A study of Rattus norvegicus with 6 samples.

Results

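Glutamate and GABA receptor genes were followed through the differentiation of rat oligodendrocytes, which wrap axons in myelin, in culture. The members are the 48 protein-coding genes of 37991 genes in the deposited table whose symbols match a pattern for subunits of an AMPA, kainate, delta or NMDA receptor, a metabotropic glutamate receptor, or a GABA-A or GABA-B receptor. The pattern rests on symbols alone, and 1 of the 48 encodes a receptor-binding protein and not a subunit. Differentiated cells from SD rats, after a change of growth factors, gave 3 libraries, and oligodendrocyte precursors of the same strain, grown in Raff medium before differentiation, gave the other 3. Both groups hold replicates numbered 1, 2 and 5. The titles place replicates 1 and 2 at day 3 for differentiated cells and day 0 for precursors, and give no day in that form for replicate 5. The labels name no genotype, age or sex of the animals and do not state that each replicate was its own culture, so the p-values reflect sample-to-sample spread that may be technical. A number in parentheses after a symbol is its gene identifier in the deposited table.

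Glutamate acts on channels that open when it binds (AMPA, kainate and NMDA receptors) and on metabotropic receptors that signal through G proteins. GABA acts on GABA-A receptors, which are chloride channels of mixed alpha, beta and gamma subunits, and on GABA-B receptors, which couple to G proteins. Oligodendrocyte precursors carry both kinds of receptor and receive synapses from neurons, and their currents are known to change as they mature. Whether a GABA-A channel excites or inhibits a cell depends on its chloride gradient, which chloride transporters set.

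Libraries were made from bulk RNA, in which fewer cells of a type and less RNA per cell cannot be told apart. Total counts per library ran from 55522101 to 79898629. All 10 markers of myelinating oligodendrocytes that were looked at, among them Mbp and Mog, were higher in differentiated cells. These 10 summed to 17451 to 20703 CPM in differentiated cells and 1307 to 2073 CPM in precursors. The 9 precursor markers found, Pdgfra and Cspg4 among them, summed to 1432 to 2089 CPM in differentiated cells and to 1285 to 2262 CPM in precursors, and were present in both groups. Of these 9, Tnr was called higher (edgeR adjusted p = 0.0138) and 0 lower, and with the replicate number as a block, described below, 4 were higher, Sox10 and Tnr among them, and 3 lower. CPM, the usual count scaled to library size, was further scaled by TMM, a trimmed mean of log ratios between libraries. Other cell types were present. The 10 astrocyte markers summed to 7457 to 7806 CPM in differentiated cells and 4012 to 5800 CPM in precursors, with 5 of 9 tested higher and none lower, while Gjb6 had at most 0.195 CPM. The 10 neuron markers summed to 244 to 289 CPM in differentiated cells and 243 to 431 CPM in precursors, with Stmn2 and Elavl4 lower, and the 12 interneuron markers to 12.2 to 21.4 CPM in differentiated cells and 22.9 to 46.4 CPM in precursors, with Dlx5 and Dlx6 at 0 reads in all libraries. Microglia markers summed to 322 to 619.9 CPM in differentiated cells and 335 to 869 CPM in precursors, and fibroblast and pericyte markers to 45.3 to 189 CPM in differentiated cells and 80.0 to 303 CPM in precursors, each highest in the replicate 1 library of its group. Without the block 0 interneuron and 0 microglia markers were called, and 1 fibroblast and pericyte marker was higher. With the block, 8 astrocyte markers were higher and 0 lower, 1 neuron marker higher and 2 lower, 0 interneuron markers higher and 3 lower, 1 microglia marker higher and 3 lower, and 1 fibroblast and pericyte marker higher and 5 lower. The part of these cells in the receptor results was not tested.

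Of the 48 receptor genes, 38 passed the filter on low counts and were tested with edgeR's quasi-likelihood test, differentiated against precursor, with Benjamini-Hochberg adjustment over all 17797 genes tested. Transcripts of the GABA-B subunit Gabbr2, the kainate subunit Grik2 and the GABA-A subunit Gabrg1 were among those higher in differentiated cells, and those of the metabotropic receptor Grm5 were lower. In all, 4 genes were called higher, against 5.65% of all genes tested, and 1 called lower, against 3.21%, at an adjusted p under 0.05. A called share of 13.2% of the 38 stands beside 8.86% over all genes, and the median log2 fold change was -0.11 over the 38 and -0.04 over all genes. The count of higher receptor genes was 1 without differentiated 2, 2 without differentiated 5 and 1 without precursor 2. Over all genes tested it was 456, 504 and 511 in these fits, against 1005 with all libraries. Without differentiated 1, precursor 1 and precursor 5, higher receptor genes numbered 4, 6 and 3, and higher genes over all 911, 910 and 639. Lower genes over all ran from 162 to 579 with 1 library left out, against 571. Grm5 was not called in any of the fits that left out 1 library, so that 0 receptor genes were lower in 5 of these and Grm3 alone was lower without precursor 1.

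Same-numbered libraries of the groups deviated together, so values from a fit blocked on that number are given beside the receptor and partner genes whose call the block changes. With the block, 8 receptor genes were called higher, against 14.9% of all genes tested, and 3 lower, against 15.7%. The called share of the 38 was then 28.9%, close to the 30.6% over all genes. Added by the block were Gabbr1, Grik4, Grid1 and Grm7, which were higher, and Grm3 and Gabra5, which were lower. Leaving out both replicate 1 libraries gave 9 genes higher, against 8.69% of all genes, and 2 lower, against 8.29%. In that fit 17.0% of all genes were called in either direction, against 8.86% with all libraries unblocked. The pairs numbered 2 and 5 were not left out in this way. A pass in that fit, here and below, uses part of the same libraries and is not independent support. In 9 of the 38 every differentiated library lay above every precursor library, as it did in 16.5% of all genes tested, and in 7 every one lay below, as in 13.8%.

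**Figure D1:**
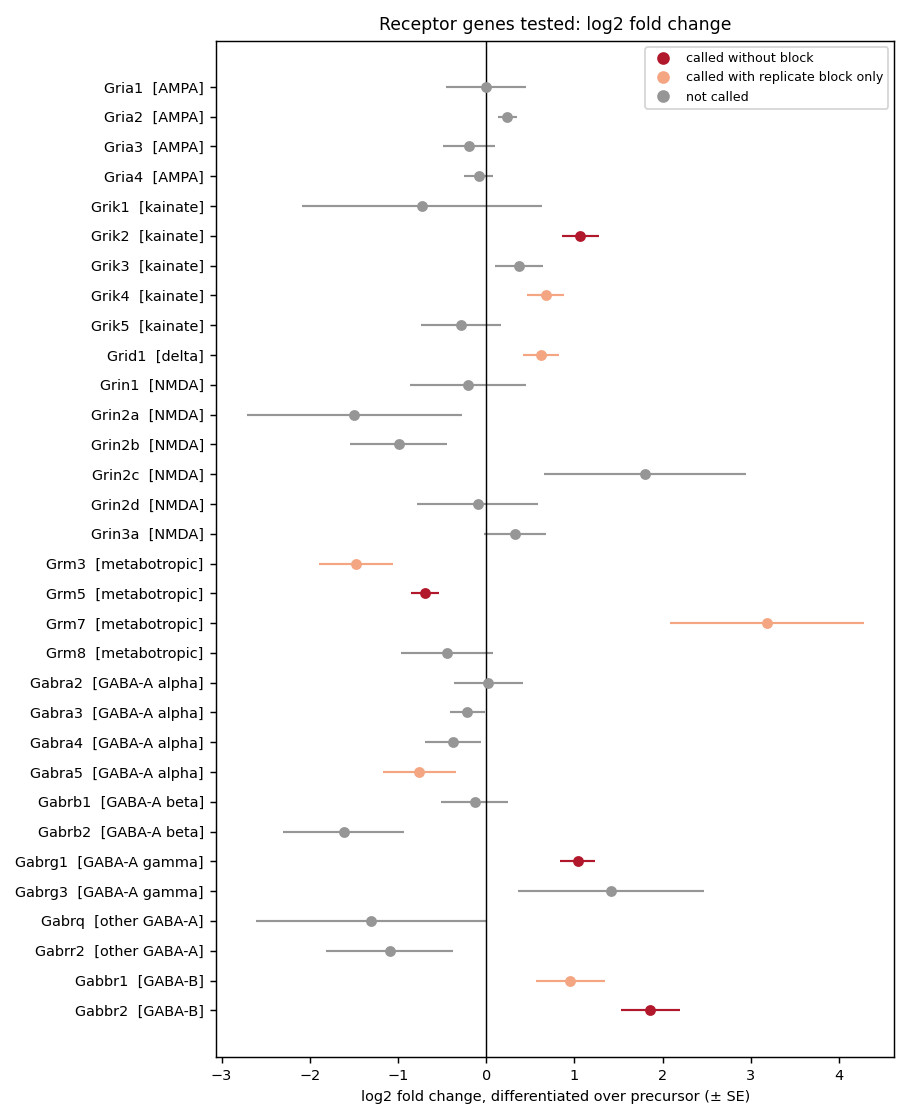
Log2 fold change, differentiated over precursor, with its standard error (SE), for 32 of the receptor genes tested (3 libraries a group, edgeR), grouped by receptor class on the vertical axis. Red points were called without the replicate block, orange points with the block and not without it, and grey points in neither fit. Gabbr2 lies at 1.86, Grm5 lies at -0.69, and the 4 AMPA subunits lie between -0.20 and 0.24.

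Promoter windows are shown for called genes, 3 that were higher and 1 that was lower, so that the sequence before genes with shared and opposite directions can be compared. Sequences are from RefSeq (GRCr8), where 31 of the 48 receptor genes have an entry. Each window is the 250 bases before the listed start, 5′ to 3′ on the strand of the gene, and capitals mark motif matches on either strand. Searched were CCAAT, the TATA box TATAAA, the GC box GGGCGG, the E-boxes CAGCTG and CAGATG, the SOX core as ACAAAG or ACAATG, and the MYRF core as CTGGCAC or CTGGTAC. The matches did not overlap one another.
Gabrg1, chr14:37750042-37750291, plus strand: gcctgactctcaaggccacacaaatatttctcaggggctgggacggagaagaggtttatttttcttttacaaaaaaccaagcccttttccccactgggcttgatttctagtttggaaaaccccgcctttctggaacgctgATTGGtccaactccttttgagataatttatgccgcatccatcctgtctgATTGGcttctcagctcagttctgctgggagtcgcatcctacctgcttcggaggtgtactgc
Gabbr2, chr5:66083696-66083945, minus strand: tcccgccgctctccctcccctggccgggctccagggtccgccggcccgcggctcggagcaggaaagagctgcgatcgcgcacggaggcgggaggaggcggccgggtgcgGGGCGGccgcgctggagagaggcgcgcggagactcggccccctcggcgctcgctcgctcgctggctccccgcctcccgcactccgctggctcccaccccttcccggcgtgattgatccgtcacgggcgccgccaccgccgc
Grik2, chr20:54415284-54415533, minus strand: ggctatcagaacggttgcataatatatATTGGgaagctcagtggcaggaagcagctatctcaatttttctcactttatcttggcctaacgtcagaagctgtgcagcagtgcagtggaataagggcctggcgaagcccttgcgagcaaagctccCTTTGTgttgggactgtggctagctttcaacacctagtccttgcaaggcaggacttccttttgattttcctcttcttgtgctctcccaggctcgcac
Grm5, chr1:150733503-150733752, plus strand: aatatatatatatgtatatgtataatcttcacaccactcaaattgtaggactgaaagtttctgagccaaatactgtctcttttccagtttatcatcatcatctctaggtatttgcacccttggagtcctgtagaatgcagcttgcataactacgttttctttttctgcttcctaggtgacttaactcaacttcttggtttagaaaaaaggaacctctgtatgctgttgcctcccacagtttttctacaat
The window of Gabrg1 holds 2 CCAAT matches, beginning 110 and 61 bases before the start, that of Grik2 holds 1 CCAAT match and 1 SOX match, and that of Gabbr2 holds 1 GC box. No motif of the set occurs in the window of Grm5, whose listed start is not the outermost start of the gene. Of 33365 such windows over all genes, 34.0% held CCAAT, 25.3% the SOX core, 30.5% the GC box, 12.9% TATAAA, 11.99% CAGCTG, 14.0% CAGATG and 5.50% the MYRF core. G and C made up 48.4%, 78.8%, 49.6% and 36.4% of the windows of Gabrg1, Gabbr2, Grik2 and Grm5, against a median of 51.6% over all. These matches describe the letters alone. The sources used here do not give the build of the counts, and the windows are tied to the genes by identifier and not by position.

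AMPA receptors carry most fast glutamate currents, and the subunit Gria2 keeps calcium out of the channel when its transcript is edited. None of the 4 AMPA genes was called, with or without the block. Gria2 (29627) was at 141, 125 and 122 CPM in differentiated 1, 2 and 5, against 102, 109.9 and 117 CPM in precursors 1, 2 and 5. The groups did not overlap but lay close, and the log2 fold change of 0.24 (SE 0.11) was not called (edgeR adjusted p = 0.245). On the scale of TPM, which sets transcripts per length to a fixed total per library, its log2 fold change was -0.02, so its direction depends on the scaling. Gria4 averaged 29.6 ± 3.64 CPM in differentiated cells and 31.4 ± 5.34 CPM in precursors (SD, n = 3 each), Gria3 averaged 11.5 ± 3.003 CPM in differentiated cells and 13.2 ± 4.25 CPM in precursors, and Gria1 averaged 4.61 ± 1.89 CPM in differentiated cells and 4.62 ± 2.02 CPM in precursors. The log2 fold changes of these 3 lay between -0.20 and -0.01.

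The make-up of the AMPA family can be read within a library, since TPM is per length. Gria2 made up 61.96, 62.7 and 61.3% of the summed TPM of the 4 genes in differentiated 1, 2 and 5, against 60.4, 55.4 and 52.4% in precursors 1, 2 and 5. Gria4 made up 26.8, 24.1 and 25.4% in differentiated cells and 29.5, 28.95 and 30.5% in precursors, and Gria1 reached at most 6.92% in all 6 libraries. The Gria2 share was thus higher and the Gria4 share lower in every differentiated library, each at an exact two-sided permutation p of 0.1, the smallest that 3 against 3 libraries allow. Shares, here and below, cannot pass a threshold of 0.05 in this design. All such shares and the ratios below are therefore descriptions of these 6 libraries.

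Kainate receptors are glutamate channels built from Grik1, Grik2 and Grik3, which form channels alone, and from Grik4 and Grik5, which need one of the first group. Grik2 (54257) was at 27.4, 38.6 and 39.3 CPM in differentiated 1, 2 and 5, against 12.96, 17.6 and 19.6 CPM in precursors 1, 2 and 5. The groups did not overlap, and within each replicate number the differentiated library was 2.11, 2.19 and 2.003 times the precursor library. The log2 fold change was 1.07 (SE 0.21, edgeR adjusted p = 0.0241, and 0.000393 with the block). The call was lost without differentiated 2 (0.124), differentiated 5 (0.1) or precursor 2 (0.0865), when scaled by library size alone (0.0707), and in the 2 TPM fits (0.174 and 0.166). Grik4 (24406) had 30.9, 35.3 and 33.4 CPM in differentiated cells and 14.5, 23.7 and 24.2 CPM in precursors, in the same order of libraries. It too was higher in 3 of 3 same-numbered pairs, at a log2 fold change of 0.67, and passed with the block (0.71, edgeR adjusted p = 0.00992) and without both replicate 1 libraries (0.0293), but not over all libraries unblocked (0.101). DESeq2, also unblocked, called Grik4 higher (adjusted p = 0.0372).

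The other kainate genes did not pass in either fit. Grik3 averaged 18.2 ± 3.94 CPM in differentiated cells and 14.1 ± 4.34 CPM in precursors. Grik5 averaged 13.6 ± 3.77 CPM in differentiated cells and 16.6 ± 10.9 CPM in precursors, and its level in precursor 5, 29.1 CPM, lay apart from the other 2 precursor libraries at 8.71 and 11.9 CPM. Grik1 had at most 65 reads in any library. Per length, Grik2 held 40.2, 45.7 and 42.5% of kainate TPM in differentiated 1, 2 and 5, against 34.8, 29.5 and 27.2% in precursors 1, 2 and 5. Summed TPM of Grik4 and Grik5 came to 0.57, 0.661 and 0.593 of that of Grik1 to Grik3 in differentiated cells and to 0.722, 0.959 and 1.07 in precursors. Genes of the subunits that form channels alone thus made up more of the family's TPM in each differentiated library.

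Delta receptors have the build of glutamate channels but are known mainly as synaptic adhesion proteins that bind cerebellins. Grid1 (79219) was at 11.7, 16.9 and 16.9 CPM in differentiated 1, 2 and 5, against 8.41, 9.98 and 11.1 CPM in precursors 1, 2 and 5. The groups did not overlap, and the log2 fold change passed with the block (0.61, edgeR adjusted p = 0.00921) and without both replicate 1 libraries (0.0251), but not over all libraries unblocked (0.62, adjusted p = 0.122).

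NMDA receptors need the subunit Grin1, joined by Grin2 subunits that bind glutamate or by Grin3 subunits that bind glycine. None of the 6 NMDA genes tested was called in the fits over all 6 libraries. The members with the highest levels were Grin3a and Grin2c, at a mean of 2.56 and 1.78 TPM in differentiated cells and 2.52 and 0.645 TPM in precursors. Grin1 itself was at 0.0632, 0.26 and 0.686 TPM in differentiated 1, 2 and 5, against 0.331, 0.3 and 0.767 TPM in precursors 1, 2 and 5. Its partners summed to 54.9, 15.8 and 8.61 times its TPM in differentiated cells and to 4.1, 11.6 and 7.04 times in precursors. The groups overlapped. The value in differentiated 1 rests on 28 Grin1 reads, and that in precursor 1 was taken with Grin2c listed at 0 there. By TPM the obligate subunit lay below the sum of its partners in all 6 libraries. Grin3a averaged 8.29 ± 2.27 CPM in differentiated cells and 6.6 ± 2.73 CPM in precursors (SD, n = 3 each, log2 fold change 0.33, edgeR adjusted p = 0.648).

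Grin2c (24411) had 739, 459 and 525 reads in differentiated 1, 2 and 5, against 0, 300.0 and 253 reads in precursors 1, 2 and 5. The 0 in precursor 1 stands against 253 reads or more in each other library. Counted over all libraries, 115 genes of the table show such a single 0 beside at least 20 reads elsewhere. Whether the 0 is a failed estimate or a true absence was not tested. Scaled, Grin2c was at 10.3, 7.11 and 9.56 CPM in differentiated cells and 0, 4.19 and 3.51 CPM in precursors. The gene did not pass over all libraries (log2 fold change 1.80, SE 1.15, edgeR adjusted p = 0.409), but did without precursor 1, at a log2 fold change of 1.21 and an edgeR adjusted p of 0.0282. Of the Grin2 TPM, Grin2c made up 96.1, 89.4 and 94.4% in differentiated 1, 2 and 5 and 84.9% and 75.7% in precursors 2 and 5. Grin2a, Grin2b and Grin2d had at most 31, 180 and 55 reads a library, and none of the 3 passed. Grin2a had 11, 9 and 0 reads in differentiated 1, 2 and 5, against 31, 11 and 15 reads in precursors 1, 2 and 5 (log2 fold change -1.49, SE 1.22, edgeR adjusted p = 0.528). Grin2d, a subunit of immature neurons, made up 1.05, 7.26 and 1.15% of Grin2 TPM in differentiated cells and 34.1, 6.81 and 4.61% in precursors, and the groups overlapped (exact two-sided permutation p = 0.3). The share in precursor 1 was taken with Grin2c listed at 0 there.

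Metabotropic glutamate receptors fall into group I, with Grm5, which raises calcium through phospholipase C, and groups II and III, which lower cyclic AMP. Grm5 (24418) was at 37.997, 30.5 and 36.3 CPM in differentiated 1, 2 and 5, against 55.8, 47.2 and 66.3 CPM in precursors 1, 2 and 5. The groups did not overlap, and the log2 fold change was -0.69 (SE 0.16, edgeR adjusted p = 0.0403, and 0.00221 with the block). The call lies near the threshold: it was lost in each of the 6 fits without 1 library, at adjusted p-values of 0.0545 (without precursor 2) to 0.154 (without differentiated 2), and in the 2 TPM fits.

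Grm3 (24416), of group II, was at 0.878, 0.961 and 1.78 CPM in differentiated 1, 2 and 5, against 2.04, 4.26 and 3.74 CPM in precursors 1, 2 and 5. Each differentiated library was below each precursor library, and the gene passed with the block (log2 fold change -1.47, edgeR adjusted p = 0.013), without precursor 1 (0.0422) and with DESeq2 (0.0147), but not in the fit without the block (0.0796). Grm7 (81672), of group III and in neurons a presynaptic receptor, had 328, 619 and 475 reads in differentiated cells and 0, 123 and 56 reads in precursors. The differentiated libraries were all higher, but the 0 in precursor 1 is again a single 0. Grm7 passed with the block (log2 fold change 3.67, edgeR adjusted p = 0.0129) but not without it over all libraries (3.18, adjusted p = 0.135). The 2 TPM fits, also unblocked, called Grm7 higher (limma adjusted p = 0.04 and 0.0471). Without precursor 1 the log2 fold change was 2.60 at an adjusted p of 0.0231. In the RefSeq table of the assembly GRCr8 the gene Grm3 overlaps the coding gene Elapor2 and Grm7 overlaps a coding gene known by a locus number, and since the strand setting of the counting is not given, their reads could be shared. The same holds for Gria1, Grik1, Grin1, Grin2d, Grin3a and Grin3b, each of which overlaps a coding gene.

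By TPM, Grm5 made up 88.4, 77.2 and 77.8% of the 8 metabotropic genes in differentiated 1, 2 and 5, against 93.9, 90.3 and 91.01% in precursors 1, 2 and 5 (exact two-sided permutation p = 0.1, the smallest possible). Grm7 made up 8.55, 19.3 and 17.04% in differentiated cells and 0, 3.17 and 1.11% in precursors. Grm5 thus had the highest level of this family in every library, with a lower share in each differentiated one. Grm8 had 25 to 61 reads a library and did not pass (log2 fold change -0.44, edgeR adjusted p = 0.682), and Grm2, Grm4 and Grm6 were below the filter.

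**Figure D2:**
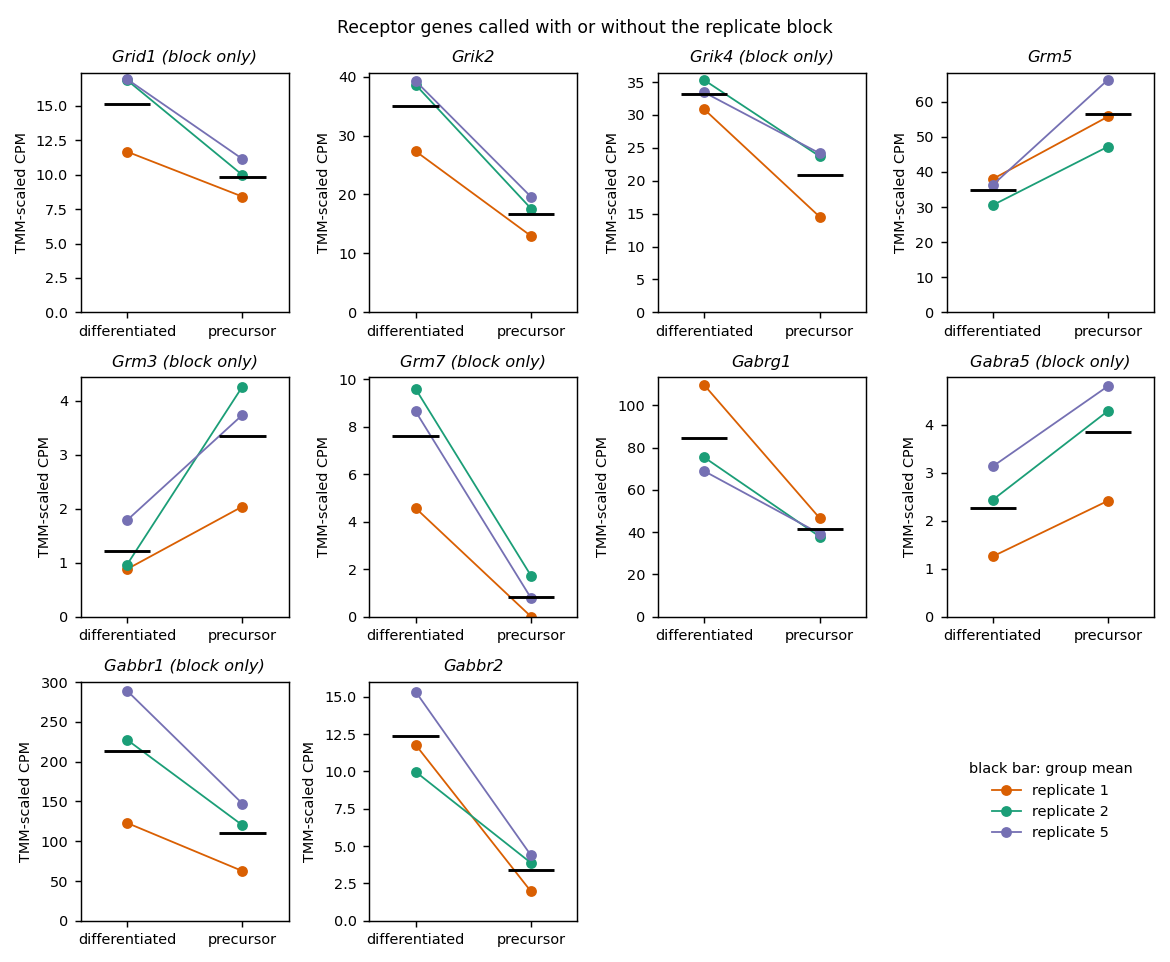
TMM-scaled CPM of 10 receptor genes called with or without the replicate block, in differentiated (left) and precursor (right) libraries. Lines join libraries with the same replicate number, coloured by number, and black bars are group means. Every line of Grid1, Grik2, Grik4, Grm7, Gabrg1, Gabbr1 and Gabbr2 is higher at its differentiated end, and every line of Grm5, Grm3 and Gabra5 is lower there.

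In GABA-A receptors a gamma subunit joins alpha and beta subunits and shapes the response to benzodiazepines, and the gamma 1 subunit is rare in most neurons. Gabrg1 (140674) was at 109.7, 75.4 and 68.9 CPM in differentiated 1, 2 and 5, against 46.7, 37.9 and 39.3 CPM in precursors 1, 2 and 5. The groups did not overlap, and both replicate 1 libraries were the highest of their groups. The log2 fold change was 1.04 (SE 0.20, edgeR adjusted p = 0.0198, and 0.000725 with the block). The call was lost without differentiated 2 (0.0544), precursor 2 (0.091) or precursor 5 (0.0713). Gabrg1 held at least 97.8% of gamma TPM in all 6 libraries. Gabrg3 had 30, 43 and 9 reads in differentiated 1, 2 and 5, against 1, 20 and 12 reads in precursors 1, 2 and 5, at a log2 fold change of 1.42 (SE 1.05, edgeR adjusted p = 0.484).

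Alpha subunits help to form the GABA site, and none of the 5 tested was called without the block. Gabra4 (140675), the alpha gene with the highest level, was at 6.51, 12.4 and 13.9 CPM in differentiated 1, 2 and 5, against 10.4, 16.9 and 15.3 CPM in precursors 1, 2 and 5, and did not pass (log2 fold change -0.38, edgeR adjusted p = 0.545, and 0.0631 with the block). Gabra5 (29707), in neurons a subunit of extrasynaptic receptors, had 1.25, 2.43 and 3.13 CPM in differentiated cells and 2.42, 4.29 and 4.81 CPM in precursors. Although the groups overlapped, Gabra5 was lower in 3 of 3 same-numbered pairs. It passed with the block, at -0.79 on the log2 scale and an edgeR adjusted p of 0.028. It did not pass in the fit lacking the block (-0.76, adjusted p = 0.333), nor without both replicate 1 libraries (0.115). Gabra3 averaged 5.19 ± 0.321 CPM in differentiated cells and 6.02 ± 0.743 CPM in precursors (SD, n = 3 each) and Gabra2 averaged 1.79 ± 0.77 CPM in differentiated cells and 1.75 ± 0.438 CPM in precursors, and neither passed in either fit.

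Beta subunits are needed for the channel to reach the membrane. Gabrb1 averaged 4.47 ± 1.14 CPM in differentiated cells and 4.89 ± 2.16 CPM in precursors (SD, n = 3 each), and Gabrb2 had 13, 8 and 12 reads in differentiated cells and 21, 35 and 57 in precursors (log2 fold change -1.61, SE 0.69, edgeR adjusted p = 0.215). Gabrg1 exceeded all alpha genes together by TPM in every library, at 6.6, 3.36 and 2.72 times their sum in differentiated 1, 2 and 5, against 1.99, 1.09 and 1.23 times in precursors 1, 2 and 5.

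GABA-A genes lie in clusters, and within the cluster of Gabrg1 the fold changes of neighbours differed in value. In GRCr8, Gabrb1, Gabra4, Gabra2 and Gabrg1 follow each other in this order on chromosome 14, with Cox7b2 as the 1 other coding gene between them. Their log2 fold changes were -0.13, -0.38, 0.03 and 1.04, of which that of Gabrg1 alone was called. The differences between these genes were not tested.

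Few reads fell on the remaining GABA-A genes. Gabrr2 had 23, 6 and 11 reads in differentiated cells and 29, 34 and 28 in precursors (log2 fold change -1.09, SE 0.72, edgeR adjusted p = 0.428), and Gabrq had 11, 0 and 29 reads in differentiated cells and 16, 24 and 78 in precursors (-1.30, SE 1.31, adjusted p = 0.62). Gabrd, Gabre, Gabrp, Gabrr1, Grin3b, Grm2, Grm4 and Grm6 had at most 25 reads in any library and were not tested. Gabra6 and Gabrr3 had 0 reads in all 6 libraries, where 3 counts, the limit that a count of 0 allows, equal up to 0.0540 CPM of a library's total. This limit covers counting error alone.

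GABA-B receptors form from Gabbr1, which binds GABA, and Gabbr2, which couples to the G protein and brings Gabbr1 to the surface. Gabbr2 (83633) was at 11.8, 9.98 and 15.3 CPM in differentiated 1, 2 and 5, against 1.96, 3.87 and 4.38 CPM in precursors 1, 2 and 5. The groups did not overlap, and the log2 fold change was 1.86 (SE 0.33, edgeR adjusted p = 0.0166, and 0.00226 with the block). The call was lost without differentiated 2 (0.053), differentiated 5 (0.072) or precursor 2 (0.0681), and in the 2 TPM fits (0.0566 and 0.0601). In GRCr8 2 noncoding genes overlap Gabbr2, with which reads could be shared. The same holds for Grik2, Grik4, Grid1, Grm5 and Grm7, which also overlap genes that are not protein-coding. No overlapping gene was listed for Gabrg1, Gabbr1 and Gabra5.

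Gabbr1 (81657) was the receptor gene with the highest mean TPM of all. It was at 123, 228 and 289 CPM in differentiated 1, 2 and 5, against 62.5, 120.2 and 147 CPM in precursors 1, 2 and 5. Replicate 1 was the lowest and replicate 5 the highest of both groups, and the groups overlapped, yet the differentiated library was 1.97, 1.89 and 1.96 times the precursor library of the same number. Accordingly its log2 fold change of 0.96 (SE 0.39) passed with the block (edgeR adjusted p = 0.000161) and without both replicate 1 libraries (0.00856), but not over all libraries without the block (0.193). The TPM ratio of Gabbr1 to Gabbr2 was 12.9, 27.9 and 23.1 in differentiated 1, 2 and 5, against 38.6, 38.1 and 41.1 in precursors 1, 2 and 5. Transcripts of the GABA-binding subunit thus exceeded those of Gabbr2 by TPM in all 6 libraries, and less so in each differentiated library. The ratio is of RNA alone and does not give subunit protein.

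**Figure D3:**
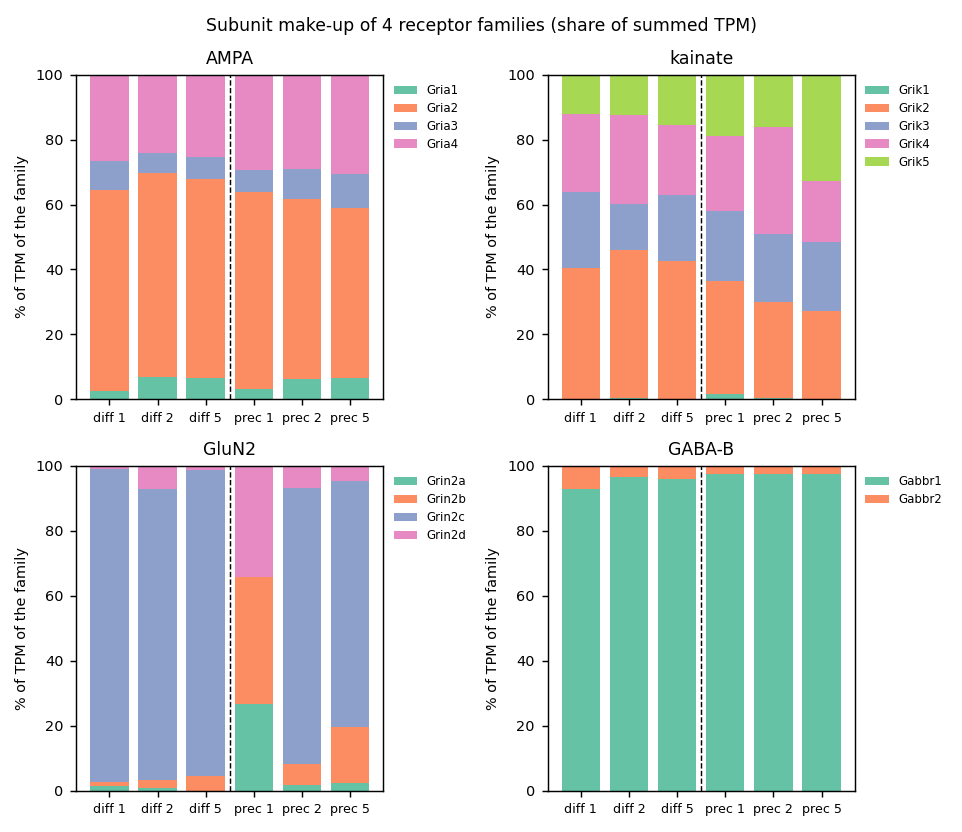
Share of each gene in the summed TPM of 4 receptor families (vertical axis, percent, with GluN2 standing for the Grin2 genes), for differentiated libraries 1, 2 and 5 on the left and precursor libraries 1, 2 and 5 on the right of the dashed line. Grik2 holds 40.2% to 45.7% of the kainate family in differentiated libraries and 27.2% to 34.8% in precursor libraries, and Grin2c is absent from precursor 1, where it is listed at 0.

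Partner genes of the receptors were read from 5 lists. Their counts of calls stand beside 5.65% higher and 3.21% lower over all genes tested without the block. With the block these shares were 14.9% and 15.7%. Whether a list differs from all genes was not tested. Auxiliary subunits, which set the gating and traffic of the channels, numbered 16 tested of 18, with 0 higher and 1 lower (median log2 fold change -0.04), and with the block 1 higher and 4 lower. Cnih3 (690252), a cornichon that slows the closing of AMPA receptors, was at 0.92, 1.22 and 0.892 CPM in differentiated 1, 2 and 5, against 1.84, 5.9 and 3.32 CPM in precursors 1, 2 and 5. Its log2 fold change of -1.86 (SE 0.46) was called at an edgeR adjusted p of 0.0491, and the call was lost without any 1 library other than precursor 1 (up to 0.168). Neto1, an auxiliary subunit of kainate receptors, passed with the block (-0.66 on the log2 scale, edgeR adjusted p = 0.0295). It did not pass without the block (-0.69, adjusted p = 0.194), nor without both replicate 1 libraries (0.0569). Shisa6 and Shisa9, which bind AMPA receptors, were at log2 fold changes of -0.99 and 2.00 and did not pass in either fit (edgeR adjusted p = 0.165 and 0.129 without the block), although Shisa9 passed without both replicate 1 libraries (0.0394).

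Scaffold and trafficking genes numbered 23 tested of 24, with 1 higher and 0 lower (median log2 fold change -0.05), and 2 higher and 3 lower with the block. Dlg1 (25252), which encodes the scaffold SAP97 that binds AMPA and kainate subunits, was at 57.6, 49.96 and 47.7 CPM in differentiated 1, 2 and 5, against 23.6, 23.9 and 24.8 CPM in precursors 1, 2 and 5. Its groups did not overlap (log2 fold change 1.10, SE 0.12, edgeR adjusted p = 0.00219), and it was called without any 1 library (up to 0.0194). Dlg2, Grip1 and Homer2, other scaffolds of glutamate receptors, passed with the block, at log2 fold changes of -1.42, -0.59 and -0.55 (edgeR adjusted p = 0.0176, 0.0286 and 0.0319). Over all libraries unblocked they did not pass (adjusted p = 0.0673, 0.0902 and 0.113). Without both replicate 1 libraries Dlg2 and Grip1 passed (0.0367 and 0.0203) and Homer2 did not (0.0544). Gphn, which anchors GABA-A receptors, was at 67.4, 70.8 and 65.6 CPM in differentiated cells and 59.3, 76.4 and 75.1 CPM in precursors and did not pass in either fit.

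Of 9 genes that make or break down the transmitters, 2 were higher and 0 lower (median log2 fold change 0.11), and 4 were higher and 3 lower with the block. Glul (24957), glutamine synthetase, was at 929, 787 and 890.0 CPM in differentiated 1, 2 and 5, against 466, 409 and 426 CPM in precursors 1, 2 and 5 (log2 fold change 1.00, SE 0.11, edgeR adjusted p = 0.00238). Glud1, glutamate dehydrogenase, averaged 844 ± 77.5 CPM in differentiated cells and 568 ± 56.6 CPM in precursors (SD, n = 3 each), at an adjusted p of 0.0296 that was lost without any 1 library other than differentiated 1 (up to 0.156). Abat, which breaks down GABA, passed with the block (0.97 on the log2 scale, edgeR adjusted p = 0.00175) and without both replicate 1 libraries (0.0403), but not over all libraries unblocked (0.93, adjusted p = 0.0533). Gad1, which makes GABA, lay on the other side, at 1.87, 1.44 and 1.82 CPM in differentiated cells and 2.21, 4.36 and 4.63 CPM in precursors. It passed with the block (-1.07 on the log2 scale, edgeR adjusted p = 0.0457) and without both replicate 1 libraries (0.0137), but not over all libraries unblocked (-1.13, adjusted p = 0.098). Glul is also an astrocyte gene and Gad1 an interneuron gene, and the marker sums of both cell types given above lie on the same sides. The part of those cells in these results was not tested.

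Transporters numbered 15 tested of 16, with 2 higher and 0 lower (median log2 fold change -0.24), and 4 higher and 3 lower with the block. Slc12a2 (83629), which encodes NKCC1, the transporter that loads chloride into cells, was at 401, 381 and 421 CPM in differentiated 1, 2 and 5, against 117, 88.8 and 103 CPM in precursors 1, 2 and 5. Its log2 fold change was 1.96 (SE 0.13, edgeR adjusted p = 0.000333), and it was called without any 1 library (up to 0.00459). The chloride exporter Slc12a5 (KCC2), a gene of mature neurons, stayed below 1 CPM in all 6 libraries and did not pass (log2 fold change 0.08, edgeR adjusted p = 0.982). Slc1a1, a glutamate uptake carrier, averaged 81.1 ± 6.4 CPM in differentiated cells and 46.5 ± 9.41 CPM in precursors (edgeR adjusted p = 0.0296), a call lost without any 1 library other than precursor 1 (up to 0.138). Slc6a13, a GABA carrier, was at 0.293, 1.19 and 1.15 CPM in differentiated cells and 1.35, 7.32 and 9.57 CPM in precursors, with replicate 1 the lowest of each group, and the groups did not overlap. It passed with the block (-2.66 on the log2 scale, edgeR adjusted p = 0.000671) and without both replicate 1 libraries (0.000855), but not over all libraries unblocked (-2.80, adjusted p = 0.0802). The same was seen for Slc1a5, a carrier of neutral amino acids (blocked -1.46 and edgeR adjusted p = 0.0056, unblocked -1.62 and 0.0709, and 0.0132 when both replicate 1 libraries were left out). The editing enzymes Adar, Adarb1 and Adarb2, of which Adarb1 edits Gria2 transcripts, did not pass in either fit, with log2 fold changes of -0.08, 0.20 and -0.05.

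**Figure D4:**
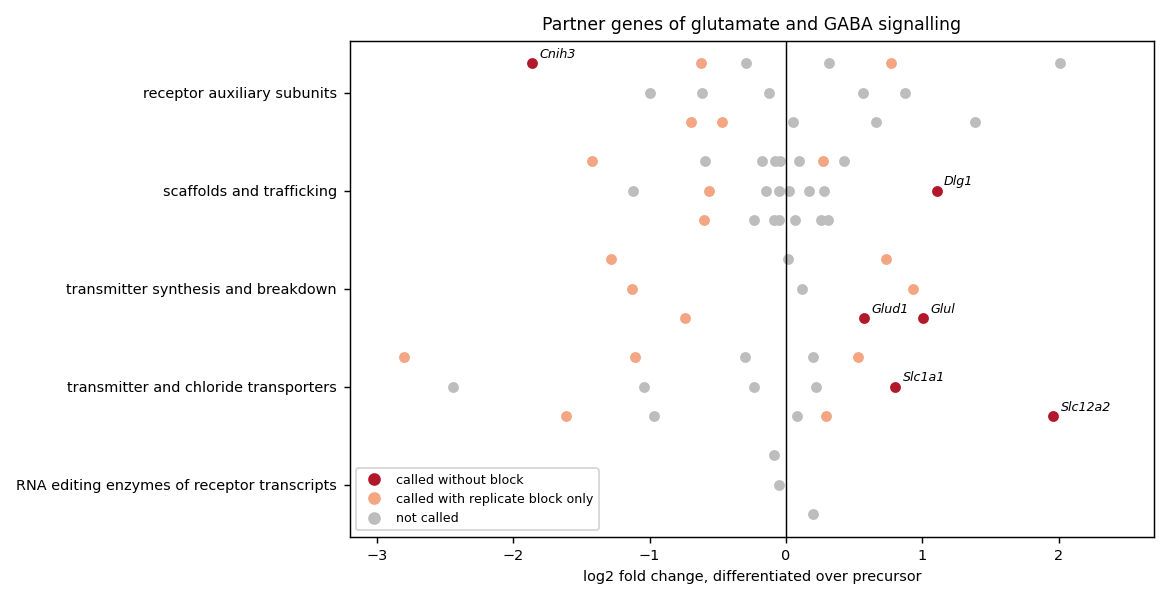
Log2 fold change, differentiated over precursor, of the tested genes of 5 lists of receptor partners (3 libraries a group, edgeR). Red points, which are named, were called without the replicate block, orange points with the block and not without it, and grey points in neither fit. Slc12a2 lies at 1.96 and Cnih3 at -1.86.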

How the data were processed

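RNA of 3 differentiated and 3 precursor libraries was sequenced after ISOGEN extraction and a stranded total RNA kit, per the labels' protocols. The submitters' processing notes name HISAT2 2.1.0, StringTie 2.1.3b, Trimmomatic 0.38 and bcl2fastq 2.20.0, and a human build, whereas the deposited identifiers are of rat genes. Rat build, annotation and strand setting: not given in the sources used here. The authors deposited 1 table with read counts, FPKM and TPM for each gene and library. The deposited read counts are whole numbers and not normalized. The deposited TPM values, scaled by the authors to transcript length and a fixed total, were used to compare genes within a library. The deposited FPKM values, made by the authors, were not used.

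Counts were tested with edgeR 4.0.16 in R 4.3.3 (quasi-likelihood test, TMM scaling, filterByExpr on low counts, robust estimation), 3 against 3 libraries, with Benjamini-Hochberg adjustment over all genes tested and a threshold of 0.05. SE is the absolute log2 fold change divided by the square root of F. Alternatives used DESeq2 1.42.0 and limma 3.58.1 on log2(TPM + 1) and log2(TPM + 0.1), other scalings and filters, a replicate block, and libraries left out. Shares were compared with exact permutation tests (scipy 1.17.1). The fitting was tested on simulated data. All 48 identifiers matched the RefSeq table of GRCr8, which served for names, neighbours and promoter sequences.

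The titles give both groups the numbers 1, 2 and 5. Within-group deviations in log2 CPM correlated across genes between same-numbered libraries at 0.421 for number 1, 0.197 for number 2 and 0.272 for number 5, and at most at 0.105 between other pairs. On this basis, which the labels do not state, equal numbers were treated as pairs. Deviations from the mean of 3 libraries cancel within a group, so these correlations depend on one another. Their contrast is not independent support for pairing.

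The members and all gene lists were chosen with earlier results of these data known. Described with values are members called with or without the block, the member of highest mean TPM in each class, and members with a log2 fold change beyond 1. Of each partner list the 4 genes with the smallest adjusted p are named. Some genes, with the shares and ratios that rest on them, are not reported here, though counts of calls cover all genes tested. Slc12a5 and Gphn were named after their values were seen.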

Additional observations from a re-analysis of the deposited data

How the results depend on the processing

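Over all genes the main counts were 1005 higher and 571 lower. They were 2643 and 2797 with the replicate block, 1546 and 1475 without both replicate 1 libraries, and 2900 and 3008 with the block in addition. DESeq2 gave 1514 higher and 1242 lower, limma on log2(TPM + 1) 487 and 1000, limma on log2(TPM + 0.1) 509 and 1090, and library size alone 1006 lower. With 1 library left out, the counts ran from 456 to 911 higher and from 162 to 579 lower. Among calls the share of higher genes was 63.8%, against 40.3% with library size alone, 48.6% with the block, 54.9% with DESeq2, and 32.8% and 31.8% in the 2 limma fits. The median log2 fold change of all genes was -0.04 with TMM, -0.17 and -0.26 on the TPM scales, and -0.19 scaled by library size.

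Receptor genes called were 4 higher and 1 lower, and the block added calls but ended none. They were 8 and 3 with the replicate block, 9 and 2 without both replicate 1 libraries, and 9 and 5 with the block in addition. DESeq2 called 5 higher, Grik4 among them, and 2 lower. Each of the 2 TPM fits called 3 higher, Grm7 among them, and 0 lower. With 1 library left out, 1 to 6 were higher and 0 to 1 lower. Gabbr2 was not called on the TPM scales (adjusted p = 0.0566 and 0.0601), nor were Grik2 (0.174 and 0.166) and Grm5 (0.0594 and 0.0522). The log2 fold change of Gria2 was -0.0198 on log2(TPM + 1) and -0.0195 on log2(TPM + 0.1), against 0.24 with TMM. The causes of these differences were not tested.

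The differentiated minus precursor difference in the Gria2 share ran from 4.10 to 8.12 points with 1 library left out, that of Grm5 from -14.3 to -8.67 and that of Grin2d from -17.3 to -2.55 (without precursor 1). Within replicate numbers the exact sign-flip p-values of the shares were 0.25 or 0.5, where 0.25 is the smallest possible. The SE of the log2 fold change was 1.36 for Grik1, at 0 to 65 reads a library. It was 1.15 for Grin2c, at 0 to 739 reads, and 0.69 for Gabrb2, at 8 to 57 reads. The part of depth in these values was not tested.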
